A study of Mus musculus with 4 samples.

Results

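The dimerising transcription factors of the AP-1 group and the small Maf factors were followed across 4 conditions in retinas grown from mouse induced pluripotent stem cells. The 10 genes were chosen by name, with earlier results of these data known, from 35699 gene names on the array. They were 4 Fos family genes (Fos, Fosb, Fosl1, Fosl2), 3 Jun family genes (Jun, Junb, Jund) and 3 small Maf genes (Maff, Mafk, Mafg). All 10 were represented, by 13 probes.

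The samples were 3D-retinas, meaning optic-cup-like structures from a floating culture of a mouse Nrl-GFP iPSC line, in which a green fluorescent reporter follows the rod gene Nrl. Structures with bright GFP were picked on differentiation day (DD) 23, treated, and collected on DD 25, and 24 of them were pooled for each sample. The groups were vehicle (ethanol), 5 µM 4-OHT (4-hydroxytamoxifen, the active metabolite of tamoxifen), vitamin E (400 µM) added to that dose of 4-OHT, and lutein (200 nM) added to it. All were DD 25 retinas of the same culture type, and vitamin E and lutein were given only together with 4-OHT, so neither was measured without it. Each group had 1 sample on 1 array; differences between groups therefore have no replicate check and no p-value, and the errors given below are those of repeated spots on an array.

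AP-1 is a family of protein dimers that bind DNA through a basic region and pair through a leucine zipper. Fos proteins do not pair with themselves and bind DNA as dimers with Jun proteins, whereas Jun proteins can also pair with each other. Several of these genes are immediate early genes, whose transcripts rise within minutes of calcium entry, growth factors or stress, without new protein synthesis, and whose mRNAs are short-lived. Small Maf proteins carry the same kind of zipper without an activation domain; as homodimers they repress, and with CNC proteins such as Nfe2l2 (Nrf2) they activate genes through antioxidant response elements. In the retina, immediate early genes respond to light, neuronal activity and injury, and the large Maf relative Nrl is the factor that directs rod fate.

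Promoter sequences are shown to give the context of the members that differed most between arrays; nothing was measured on these promoters, and no signal that acts through them was measured. RefSeq windows (assembly GRCm38.p6) of 250 bases before the annotated start were found for 9 of the 10 genes, Maff having 3 windows. The 4 genes with the highest differences between 4-OHT and vehicle among those measured on both arrays, and Jun, are shown 5′ to 3′ on the gene's strand, with matches to the searched letters in capitals:
Fos, chr12:85473640-85473889, strand +: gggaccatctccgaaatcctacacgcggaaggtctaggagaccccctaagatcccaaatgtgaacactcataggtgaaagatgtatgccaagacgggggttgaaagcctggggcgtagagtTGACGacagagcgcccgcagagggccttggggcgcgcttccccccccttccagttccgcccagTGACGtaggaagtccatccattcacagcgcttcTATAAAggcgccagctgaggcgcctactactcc
Maff (window 2), chr15:79347270-79347519, strand +: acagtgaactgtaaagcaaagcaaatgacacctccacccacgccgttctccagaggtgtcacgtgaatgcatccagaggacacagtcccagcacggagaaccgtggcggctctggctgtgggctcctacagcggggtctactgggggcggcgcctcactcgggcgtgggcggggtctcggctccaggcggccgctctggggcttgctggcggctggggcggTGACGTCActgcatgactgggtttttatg
Junb, chr8:84978749-84978998, strand -: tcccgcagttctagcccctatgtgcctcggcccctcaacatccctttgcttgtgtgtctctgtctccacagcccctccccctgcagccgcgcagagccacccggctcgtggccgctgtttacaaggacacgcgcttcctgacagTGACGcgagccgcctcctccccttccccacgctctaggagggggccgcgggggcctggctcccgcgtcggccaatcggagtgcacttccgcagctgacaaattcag
Fosb, chr7:19310046-19310295, strand -: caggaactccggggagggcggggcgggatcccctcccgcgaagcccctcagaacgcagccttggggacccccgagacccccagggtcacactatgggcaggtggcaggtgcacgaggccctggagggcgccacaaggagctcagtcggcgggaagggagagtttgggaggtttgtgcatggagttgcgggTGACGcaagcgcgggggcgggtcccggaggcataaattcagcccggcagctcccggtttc
Jun, chr4:95052223-95052472, strand -: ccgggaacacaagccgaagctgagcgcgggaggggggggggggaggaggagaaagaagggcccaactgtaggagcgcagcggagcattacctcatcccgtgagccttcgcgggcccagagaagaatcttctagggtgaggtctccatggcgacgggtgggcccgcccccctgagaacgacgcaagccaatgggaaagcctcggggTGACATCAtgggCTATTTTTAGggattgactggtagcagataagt

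The searched letters were read on both strands. TGACG, the core shared by cAMP response and ATF sites, was present in 17.8% of 32851 windows of this length. Counted by gene, 19.8% of 27025 genes and 6 of the 9 (Fos, Fosb, Junb, Maff, Mafk, Mafg) had a window with it, and a gene with more windows, such as Maff, has more chances of a match. In Fos it appeared at bases -129 to -125 and -66 to -62 from the start, upstream of a TATAAA at -33 to -28, letters held by 12.4% of windows. In Junb it lay at -106 to -102 and in Fosb at -60 to -56. The second Maff window held the full palindrome TGACGTCA at -29 to -22, which overlaps TGACG and was present in 1.55% of windows and 1.77% of genes. The variant TGACATCA, held by 2.93% of windows and 3.41% of genes, lay at -45 to -38 in Jun and in the third Maff window. The Jun window also held a MEF2 site at -33 to -24, found in 0.508% of windows. The 7-base AP-1 sites TGACTCA or TGAGTCA (4.46% of windows) had no match in the windows of the 9 genes. The same held for the CArG box bound by serum response factor (1.47%). Bases farther upstream or past the start were not searched for any of these letters. The lack of a match therefore applies to the windows only, and whether a site lies outside them was not tested. TGACNNNGC, the core of the antioxidant response element, was present in 10.2% of windows and 11.5% of genes, and matched in all 3 small Maf genes, for Maff in its first window only. Fosl2 and Jund had no match to any of the searched letters. The windows differed in base composition: the 5 printed ones held 58.4% to 68.8% G and C, against a median of 52.4% over all windows, and the letters above contain G and C to different degrees, so the shares are not matched for composition. A match describes letters only.

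Array quality was alike across groups. Between 51.3% and 54.5% of 59305 gene spots per array were well above background and 0 were saturated. Levels below are log2 signal relative to the 75th percentile of the gene spots of the same array, so 0 is that percentile; probes differ in their response, and levels of different genes are not compared. For probes spotted 10 times, the SD over spots of the log2 difference was 0.23 to 0.26 below a signal of 200, 0.09 to 0.11 from 200 to 2000 and 0.05 above 2000. Of the member probes only that of Fos was spotted 10 times, and each other had 1 spot per array. A spot SD given beside another member is therefore that of replicated probes of like signal. A gene counted as measured in a comparison if its probe cleared background on either array or both. A dim value was raised to the weakest signal that cleared background on that array, unless its own was higher, which turns the difference into a bound. In bulk RNA, fewer cells of a type and less RNA per cell cannot be told apart.

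With 4-OHT, transcripts of all 3 families were higher than with vehicle. Of the 10 genes, 8 were at least 2-fold higher, where 7.74% of 22061 measured gene names were, and 0 were at least 2-fold lower, where 3.15% of names were. The median log2 difference of the members was 2.10, against -0.06 over all gene names. With vitamin E most of them lay nearer to vehicle than to 4-OHT. Fosb, Fosl2, Jun, Junb and Maff were still 1.66-fold to 1.87-fold above vehicle on that array. Most were high with lutein, and Fos was high on all 3 arrays with 4-OHT.

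**Figure D1:**
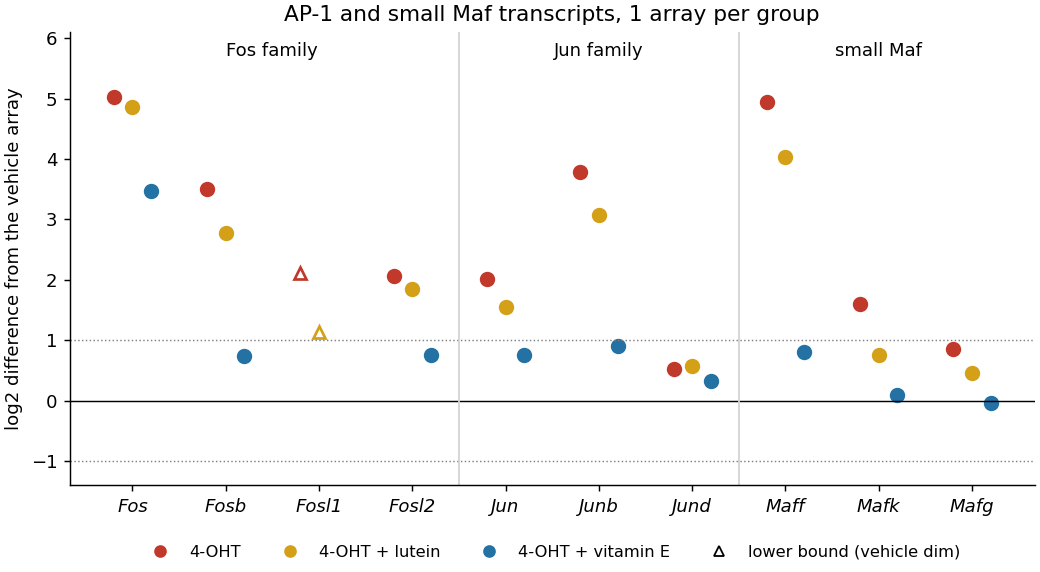
Log2 difference from the vehicle array (y axis) for each of the 10 genes (x axis, grouped by family) on the 3 arrays with 4-OHT, 1 array per group; filled circles are differences, open triangles are lower bounds where the vehicle signal was not well above background, and dotted lines mark 2-fold. Fos lay at 5.03, 4.86 and 3.47 with 4-OHT, lutein and vitamin E, whereas the other members with vitamin E lay at 0.91 or below; Fosl1 has no point for vitamin E because neither array was well above background.

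Fos, the founding Fos family gene, was measured by 1 probe spotted 10 times (mm9 chr12:86817900-86817959, plus strand). Its log2 level was -1.94 with vehicle, 3.09 with 4-OHT, 1.54 with vitamin E and 2.92 with lutein. The spots read 126 to 179 signal units with vehicle, 3800 to 4500 with 4-OHT, 1510 to 1690 with vitamin E and 3950 to 4450 with lutein. The vehicle array was thus low and the other 3 high, and the spots of the vehicle and vitamin E arrays overlapped neither each other nor those of the other arrays, whereas raw spot signals of the 4-OHT and lutein arrays overlapped. Fos was 32.6-fold higher with 4-OHT than with vehicle, a log2 difference of 5.03 ± 0.19 (SD over 10 spots of 1 array pair), which was 4.44 under normexp background correction. With vitamin E it was 2.93-fold lower than with 4-OHT alone (-1.55 ± 0.07, SD over 10 spots) and still 11.1-fold higher than with vehicle (3.47 ± 0.16). With lutein the log2 difference from 4-OHT alone was -0.17 ± 0.05, or 1.13-fold lower, below 0 on 10 of 10 spots after scaling. That difference ranged from -0.29 to -0.06 over the scalings and backgrounds tried, a span larger than its spot SD.

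**Figure D2:**
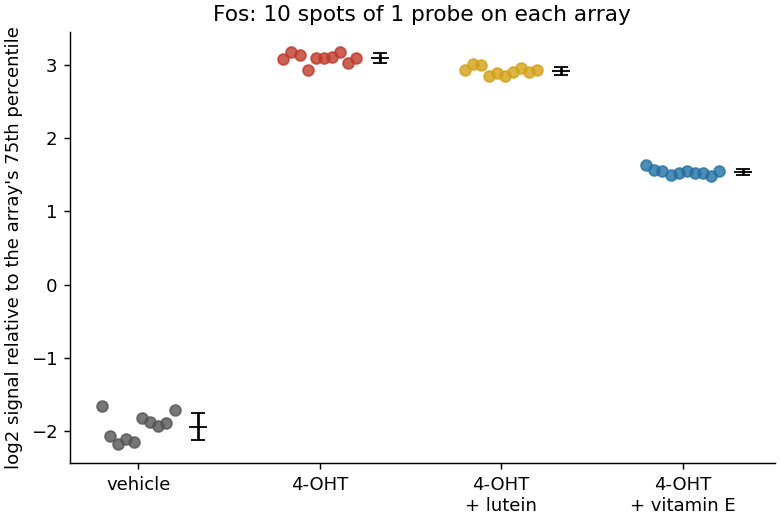
Log2 signal of the 10 spots of the Fos probe on each of the 4 arrays, relative to the array's 75th percentile; points are spots and the black marks beside them are the mean and SD over the 10 spots, which measure spotting error and not replicate retinas. The vehicle spots average -1.94, and the vitamin E spots average 1.54, between vehicle and the 4-OHT (3.09) and lutein (2.92) spots.

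Fosb, whose protein has a long and a truncated form that the array does not separate here, followed the same order of arrays with a wider gap for vitamin E. Its log2 level was -2.44 with vehicle, 1.06 with 4-OHT, -1.71 with vitamin E and 0.33 with lutein. The 4-OHT and lutein arrays were high, and the vitamin E array lay nearer to vehicle than to 4-OHT. Fosb was 11.3-fold higher with 4-OHT than with vehicle (log2 difference 3.5), 6.8-fold lower on the vitamin E array than on the 4-OHT array (-2.77), and 1.65-fold lower with lutein (-0.72). With vitamin E it was 1.66-fold above vehicle and with lutein 6.86-fold above it. Under normexp background correction the log2 differences from vehicle were 2.74 with 4-OHT and 2.06 with lutein (2.78 before).

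Fosl1 (Fra-1), a Fos relative without the transactivation domain of Fos, was well above background only with 4-OHT (log2 level -2.16) and with lutein (-3.14). Its measured levels with vehicle, -6.38, and with vitamin E, -4.93, were not well above background. It was at least 4.34-fold higher with 4-OHT than with vehicle and at least 5.2-fold lower on the vitamin E array than on the 4-OHT array. With lutein it was 1.98-fold lower than with 4-OHT alone, just inside the 2-fold limit, and at least 2.2-fold above vehicle. Under normexp background correction the bounds between 4-OHT and vehicle and between vitamin E and 4-OHT alone, 2.12 and -2.38 on the log2 scale, were 1.16 and -1.14. All its signals were under 200, where spots of a probe vary most.

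Fosl2 (Fra-2), the other relative of this kind, had 2 probes 4929 bases apart on mm9 chromosome 5. The brighter one, at chr5:32460076-32460135, read -2.02 with vehicle, 0.06 with 4-OHT, -1.26 with vitamin E and -0.17 with lutein. By this probe, the 4-OHT and lutein arrays were high and nearly equal: Fosl2 was 4.21-fold higher with 4-OHT than with vehicle, 2.5-fold lower on the vitamin E array than on the 4-OHT array and 1.17-fold lower with lutein. The other probe, at chr5:32455088-32455147, cleared background with 4-OHT alone. It gave at least 3.3-fold higher with 4-OHT than with vehicle, at least 3.95-fold lower with vitamin E and at least 2.98-fold lower with lutein. The probes therefore differed on lutein, by more than the 0.26 spot SD of replicated probes with such signals. Each Fosl2 probe had 1 spot per array, and which of them follows the main transcript was not tested.

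Jun, the main partner of Fos, had high signal on all 4 arrays, with log2 levels of 5.49 with vehicle, 7.51 with 4-OHT, 6.25 with vitamin E and 7.04 with lutein. The 4-OHT array was highest and vitamin E lay nearer to vehicle than to 4-OHT. Jun was 4.06-fold higher with 4-OHT than with vehicle, 2.4-fold lower on the vitamin E array than on the 4-OHT array and 1.39-fold lower with lutein (log2 difference -0.47, against a spot SD of 0.05 at this signal). Over the alternatives the lutein difference ranged from -0.54 to -0.37, a span larger than that SD. Jun was 1.7-fold above vehicle with vitamin E and 2.93-fold above it with lutein.

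Junb, a Jun protein that activates weakly and can oppose Jun, had the highest difference of the Jun family. Its log2 level was -3.56 with vehicle, 0.22 with 4-OHT, -2.66 with vitamin E and -0.49 with lutein (probe at mm9 chr8:87501881-87501940, minus strand). The 4-OHT and lutein arrays were high and the other pair low. It was 13.8-fold higher with 4-OHT than with vehicle, 7.37-fold lower on the vitamin E array than on the 4-OHT array and 1.64-fold lower with lutein. On the vitamin E array Junb was 1.87-fold above vehicle. Under normexp background correction the log2 difference between 4-OHT and vehicle, 3.79, was 2.89.

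Jund, the Jun gene usually expressed without stimulation, differed little. Its log2 level was 5.74 with vehicle, 6.25 with 4-OHT, 6.06 with vitamin E and 6.32 with lutein. The vehicle array was lowest and the lutein array highest, and no pair of arrays differed by 2-fold. It was 1.43-fold higher with 4-OHT than with vehicle (log2 difference 0.52, spot SD 0.05, and 0.37 to 0.61 over the alternatives). Its log2 difference between vitamin E and 4-OHT alone, -0.19, was 0.03 under spike-in scaling, so that direction depends on the scaling.

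Maff, the small Maf gene known to be inducible by stress and inflammatory signals, differed nearly as much as Fos with 4-OHT. Unlike Fos, it lay nearer to vehicle than to 4-OHT with vitamin E. Its log2 level was -3.52 with vehicle, 1.43 with 4-OHT, -2.72 with vitamin E and 0.52 with lutein (probe at mm9 chr15:79189442-79189501, plus strand). The 4-OHT and lutein arrays were high and the vehicle and vitamin E arrays low. Maff was 30.8-fold higher with 4-OHT than with vehicle (log2 difference 4.94), 17.7-fold lower on the vitamin E array than on the 4-OHT array (-4.14) and 1.87-fold lower with lutein (-0.91). On the vitamin E array Maff was 1.74-fold above vehicle (log2 difference 0.80, and 0.39 under normexp background correction). Its vehicle and vitamin E signals were under 100 units, so these folds rest on dim spots; over the alternatives the 4-OHT difference ranged from 3.68 to 4.96 and the vitamin E difference from -4.16 to -3.29.

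Mafk, a small Maf expressed in many tissues, had log2 levels of -1.60 with vehicle, 0.00 with 4-OHT, -1.50 with vitamin E and -0.84 with lutein. The vitamin E array was close to vehicle, and the lutein array lay about midway between vehicle and 4-OHT. It was 3.03-fold higher with 4-OHT than with vehicle, 2.84-fold lower on the vitamin E array than on the 4-OHT array and 1.8-fold lower with lutein.

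Mafg, another broadly expressed small Maf, had 3 probes, all well above background on all arrays. The brightest read 4.70 with vehicle, 5.55 with 4-OHT, 4.66 with vitamin E and 5.15 with lutein. The 4-OHT array was highest, and vehicle and vitamin E were nearly equal. The 3 probes gave log2 differences of 0.93, 0.78 and 0.85 between 4-OHT and vehicle and of -0.81, -0.72 and -0.89 between vitamin E and 4-OHT alone. Each probe was thus under 2-fold in both comparisons with the scaling used here, by more than the spot SD of 0.05; under quantile normalization the brightest probe reached 1.00 and -1.02.

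The comparisons below share the 4-OHT array or the vehicle array, so that an error of that array enters more than 1 of them, and their values are set side by side only. Between vitamin E and 4-OHT alone, 8 of 10 members were at least 2-fold lower with vitamin E, where 8.8% of 22130 measured gene names were, and the member median was -1.53 against 0.08 over all names. Between lutein and 4-OHT alone, 0 of 10 were at least 2-fold lower, where 3.83% of 21974 names were, and the member median was -0.59 against 0.08. In that comparison 9 of 10 members were lower with lutein and 1, Jund, was higher. Against vehicle, 1 of 9 measured members, Fos, was at least 2-fold higher with vitamin E, where 1.09% of 21345 names were. With lutein 7 of 10 members were at least 2-fold above vehicle, where 3.44% of 21338 names were; Jund, Mafk and Mafg were not, and the Fosl1 bound lay at 0.53 under normexp. Between vitamin E and lutein, all 10 members lay below 0, and the member median was -1.24 against 0.02 over all names. At least 2-fold lower with vitamin E than with lutein were 6 of 10 members, where 3.66% of 21420 names were. Of these, Maff was 9.42-fold lower, Junb 4.49-fold, Fosb 4.12-fold, Fosl1 at least 2.63-fold, Fos 2.61-fold and Fosl2 2.14-fold. The Fosl2 value lay at -0.99 under spike-in scaling and at -0.84 under normexp background correction, and the Fosl1 bound at -0.51 under normexp.

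The order of the arrays, from highest to lowest, was 4-OHT, lutein, vitamin E and vehicle for 7 of the 9 members well above background on all arrays, with Jund and Mafg as the exceptions. The same order held for 9.01% of 13125 genes with a RefSeq symbol that were well above background on all 4 arrays, and for 61.0% of the 661 of these that were at least 2-fold higher with 4-OHT than with vehicle.

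The members did not retain the same share of their 4-OHT difference. For the 7 members with measured values and at least 2-fold higher with 4-OHT, the log2 difference from vehicle with vitamin E was 5.71% to 69.1% of that with 4-OHT alone, with a median of 23.9%. Fos was at the top with 69.1% ± 1.2 (SD over 10 spots), followed by Jun at 37.7% and Fosl2 at 36.3%. Junb kept 23.9%, Fosb 21.0%, Maff 16.2% and Mafk 5.71%. Over all 663 genes with a RefSeq symbol and at least 2-fold higher with 4-OHT, the quartiles were -3.12%, 16.6% and 38.2%, and Fos lay at percentile 92.3. These shares use the vehicle array on both sides of the ratio, and the 4-OHT array both chose the genes and is the denominator.

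**Figure D3:**
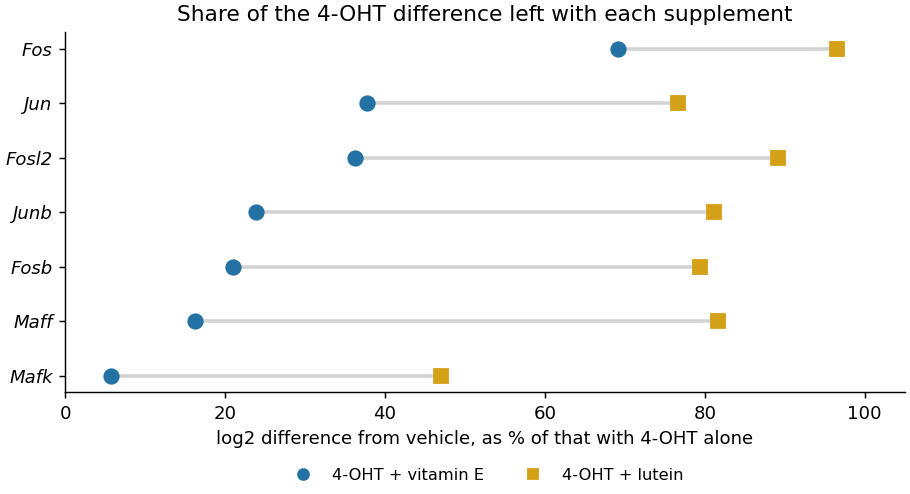
Share of the 4-OHT log2 difference from vehicle that remained with vitamin E (circles) and with lutein (squares), in percent, for the 7 members that were at least 2-fold higher with 4-OHT with values on all arrays; 1 array per group. Vitamin E left 5.71% (Mafk) to 69.1% (Fos), and lutein left 47.0% (Mafk) to 96.6% (Fos), more than vitamin E for each of the 7.

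With lutein the shares were 96.6% ± 1.0 (SD over 10 spots) for Fos, 89.2% for Fosl2 by its brighter probe, 81.7% for Maff and 81.1% for Junb. Fosb kept 79.4%, Jun 76.6% and Mafk 47.0%. The quartiles over 674 genes chosen in the same way were 37.9%, 64.2% and 83.6%. Fos and Fosl2 thus lay above the upper quartile and Mafk inside the middle range, near its lower end.

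The genes whose 3 log2 differences from vehicle (with 4-OHT, vitamin E and lutein) lay nearest to those of each member were looked up among the 13125 genes well above background on all arrays, the distance being the root of the summed squared gaps. For Fos the nearest was Egr1, a zinc finger immediate early gene, at a distance of 0.67, with differences of 4.49, 3.33 and 4.48. Next came Npas4, a neuronal activity-dependent factor, at 1.0, with 5.99, 3.21 and 4.96, and then Dclk3 at 2.45. Few genes lay near Fos, since its values are far from those of most genes. For Maff the nearest were the metallothionein genes Mt2 (0.28; differences 4.90, 0.53 and 4.06) and Mt1 (0.55), followed by Atf3 (0.59). For Fosb they were Hmox1 (0.35), Arid5a (0.42) and Slc7a3 (0.44), and for Junb Scube1 (0.36), Hmox1 (0.37) and Slc7a3 (0.41). For Fosl2 the nearest were the MAP kinase phosphatase gene Dusp1 (0.13), H2-Q10 (0.13) and Gpt2 (0.16), and for Jun they were Rhbdf1 (0.12), H2-Bl (0.13) and Epha2 (0.14). Jund, Mafk and Mafg had neighbours at 0.02 to 0.09, in the range where many genes lie. With 3 values per gene from 4 arrays, such a likeness is a description.

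Genes that act with these factors were then read from lists, which were also chosen with earlier results of these data known. Their counts are set beside the 7.74% of names at least 2-fold higher and the 3.15% at least 2-fold lower with 4-OHT than with vehicle, as a description. Among the ATF, JDP and BATF proteins that pair with Jun or Fos, 2 of 6 measured genes passed 2-fold upward with 4-OHT and 0 downward, with a median of 0.59. They were Atf3, a stress-induced factor, at 4.38 (log2 levels 0.45, 4.83, 1.26 and 4.35 with vehicle, 4-OHT, vitamin E and lutein), and Jdp2, a repressor of AP-1, at 1.91 (levels 0.40, 2.30, 0.56 and 2.19). Both were high with 4-OHT and lutein and, with vitamin E, nearer to vehicle than to 4-OHT. Atf2 lay at -0.35 and Atf7 at 0.74, and Batf was not well above background on any array.

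Among the upstream kinases, 1 of 15 MAP kinase and MAP kinase kinase genes, Map2k3, was at least 2-fold higher with 4-OHT (1.21), 0 were lower, and the median was -0.16. Map2k3, which activates the kinase p38, read -2.41, -1.20, -2.00 and -1.59 with vehicle, 4-OHT, vitamin E and lutein, and was under 2-fold with normexp background correction. Of serum response factor, its ternary complex partners and the CREB group, 0 of 7 passed 2-fold in either direction. Elk3 lay at 0.93, Crem at 0.69, Elk1 at 0.58, Srf at 0.20 and Creb1 at 0.08, with Atf1 at -0.51. These are transcript levels, and the activity of kinases and of these factors, which is set by phosphorylation, was not measured. Of 6 proteins that bind AU-rich elements, the sequences through which the stability of Fos and related mRNAs is set, 1 passed 2-fold: Zfp36 (tristetraprolin), at least 2.13-fold higher with 4-OHT than with vehicle, where it was not well above background; it did not pass under quantile normalization, spike-in scaling or normexp, or where both arrays had to clear background.

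Of the partners of small Mafs, 0 of 4 measured genes passed 2-fold with 4-OHT, and 1 did with the dimmest probe of each gene or with no filter. Nfe2l1 lay at 0.67 and Nfe2l2 at -0.54, that is 1.46-fold lower, with levels of 2.13, 1.59, 1.80 and 1.73 with vehicle, 4-OHT, vitamin E and lutein. The repressor Bach1 lay at -0.10 and Bach2 at 0.27. Of 3 large Maf genes, which have an activation domain, 0 passed 2-fold. Nrl, the rod factor, lay at -0.75 and Maf at -0.55, against 0.18 for Mafa, so these 3 lay below each of the 3 small Maf genes on the difference scale.

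Of 15 textbook AP-1 target genes 9 were measured, and 2 of them were at least 2-fold higher with 4-OHT than with vehicle, with 0 lower and a median of 0.70. Timp1, an inhibitor of matrix metalloproteinases, was at least 13.6-fold higher with 4-OHT (measured levels -4.16 and -0.40); it differed by -3.42 on the log2 scale between vitamin E and 4-OHT alone and by -1.11 between lutein and 4-OHT alone. Plaur, the urokinase receptor, was at least 8.84-fold higher with 4-OHT (measured levels -6.34 and -1.14) and at least 10.6-fold lower with vitamin E. Under 2-fold lay Hbegf at 0.90, Vim at 0.89, Cd44 at 0.70 and Gal at 0.68. Ccnd1 lay at -0.05, and Mmp13, at least 1.9-fold lower, and Mmp9, at least 1.29-fold lower, lay on the other side of 0. Mmp3, Mmp10, Plau, Il6, Spp1 and Sprr1a did not clear background on any array. The count of 2 was 4 under quantile normalization and with no filter, and 0 where both arrays had to be well above background.

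Of 12 antioxidant response element genes 11 were measured, and 2 were at least 2-fold higher with 4-OHT, with 0 lower and a median of 0.33. Hmox1, heme oxygenase 1, had a log2 difference of 3.47 between 4-OHT and vehicle and was 6.59-fold lower on the vitamin E array than on the 4-OHT array. Slc7a11, the cystine transporter subunit, was at least 5.0-fold higher with 4-OHT than with vehicle. It was at least 5.98-fold lower on the vitamin E array than on the 4-OHT array. The glutathione synthesis genes Gclc at 0.51 and Gclm at 0.34 were under 2-fold, as were Srxn1 at 0.33 and Txnrd1 at 0.26. Gsr lay at -0.68, Me1 at -0.64 and Fth1 at -0.48, and Nqo1 was not well above background on any array.

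**Figure D4:**
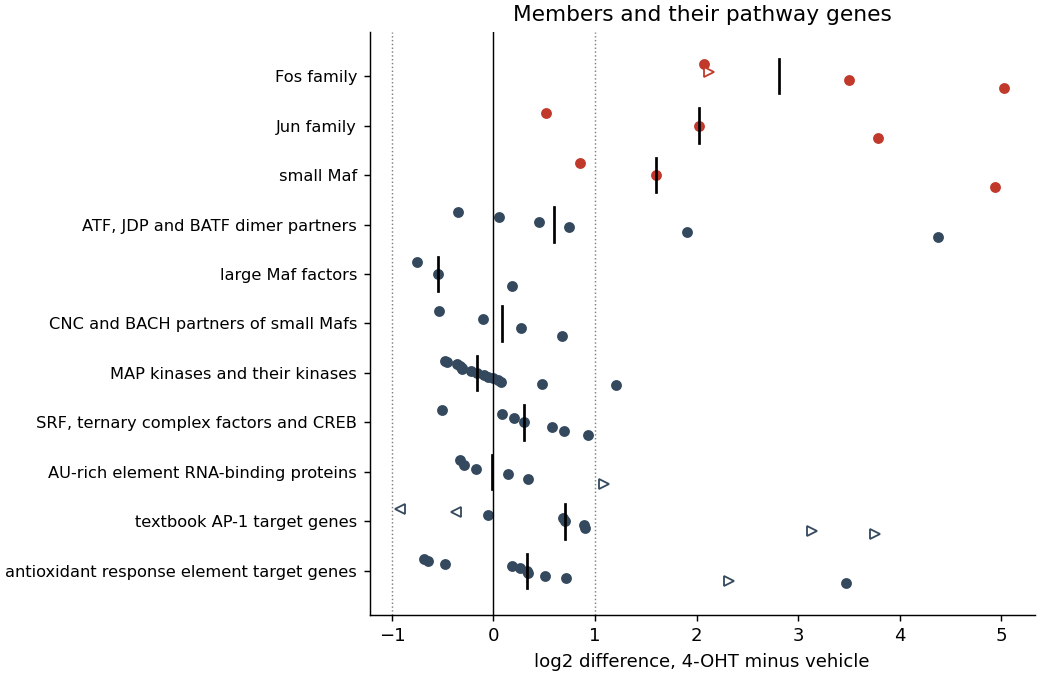
Log2 difference between the 4-OHT and vehicle arrays (x axis) for the members by family (red) and for 8 lists of related genes (dark blue), 1 array per group; circles are differences, open triangles are bounds pointing away from 0, black bars are list medians and dotted lines mark 2-fold. The medians of the member families are 2.81, 2.02 and 1.60, and those of the 8 lists lie between -0.55 and 0.70.

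Cell type markers were read on the same arrays. All 8 rod markers were well above background on all arrays, as the labelled tissue implies, and their summed level, in units of the 75th percentile, was 1110 with vehicle, 513 with 4-OHT, 878 with vitamin E and 661 with lutein, the reverse of the order seen for 7 members. The sums were 43.2 to 56.9 for 6 Müller glia markers, 98.2 to 116 for 10 markers of inner retinal neurons (Onecut1 not well above background) and 2.72 to 3.88 for 6 cone markers (Opn1mw not well above background). A sum is set mostly by its brightest probes. By gene, 8 of 8 rod, 5 of 6 Müller glia and 8 of 9 measured inner neuron markers were lower with 4-OHT than with vehicle. Their median log2 differences were -1.50, -0.28 and -0.35, against -0.06 over all gene names and -0.12 over names that are RefSeq symbols. Both of these background medians are themselves below 0. At least 2-fold lower were 4 rod markers, 0 Müller glia markers and 1 inner neuron marker, Gad1, where 3.15% of names were. The cone markers went both ways with 4-OHT against vehicle: Arr3 was 3.97-fold and Opn1sw at least 2.93-fold higher, and Gnat2 was 2.46-fold lower, of 5 measured. The part of cell makeup in the results for the members was not tested. Of other cells in which AP-1 genes are readily induced, the leukocyte markers Cx3cr1, P2ry12, Aif1, C1qa and Ptprc did not clear background on any array, and the sum of the 7 listed, 2.15 to 2.55, came mostly from Csf1r (log2 levels 1.01 to 1.27). Tmem119 cleared background with vehicle, vitamin E and lutein, and was at least 4.04-fold lower with 4-OHT than with vehicle. Of 5 endothelial markers, Cdh5 and Tek cleared background on no array, and Cldn5 did not with vehicle; it was at least 4.39-fold higher with 4-OHT. The list sum of 21.0 to 23.8 came mostly from Kdr (log2 levels 4.37 to 4.54). The sum of 7 pigment epithelium markers was 3.2 with vehicle, 11.8 with 4-OHT, 8.98 with vitamin E and 10.9 with lutein, with Rpe65 and Best1 not well above background; Dct alone, at 0.99, 3.41, 2.92 and 3.24, was past 2-fold with 4-OHT. Of 6 fibroblast markers 1 was well above background on each of 3 arrays and 4 on the vitamin E array (Col3a1 and Lum on none; sums 0.249 to 0.43). The sum was 0.224 to 0.414 for 4 astrocyte markers, with S100b and Pax2 not well above background. Gfap cleared background only with 4-OHT and lutein, and Aldh1l1 was 2.42-fold lower with 4-OHT than with vehicle. For 4 markers of pluripotent cells the sum was 1.87 to 2.88, with Pou5f1 and Zfp42 not well above background. Nanog and Dppa5a cleared background on all 4 arrays, and this sum came mostly from Nanog (log2 levels 0.76 to 1.4). For 5 lens markers the sum was 0.856 to 1.09, with Cryaa and Crygd not well above background.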

How the data were processed

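RNA (50 ng per sample, per the labels) of 4 pooled samples, 1 per group, was labelled with Cy3 and hybridised to 1-colour mouse arrays on 1 slide read in 1 scan, so a group cannot be told apart from its place on the slide. Spots were quantified in Agilent Feature Extraction (version 10.7.3.1 in the submitters' processing notes). The deposited values are spot intensity after background subtraction and detrending, per the file headers, without normalization between arrays. Probe positions are on mm9, whose exon annotation was not used here. The lutein file holds 3 significant digits and altered gene names, so names came from the vehicle file. The authors' deposited value table holds intensity divided by 1 number per array (494.2 for vehicle, 434.1 for 4-OHT, 468.9 for vitamin E and 479.2 for lutein, by comparison with the scanner values), not logged or centred, with column medians of 0.0794, 0.0949, 0.0736 and 0.0847.

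Control and outlier spots were left out, log2 intensity was taken relative to the 75th percentile of gene spots, spots of a probe were averaged, and a gene was read from its brightest probe by mean level. The limit of 2-fold is a size, not a test, and 1 array per group limits the precision. The members and lists were chosen with earlier results of these data known. Of the pathway lists, 2 genes are not reported here and were left out of the lists before counting. Genes were named as all members, the 3 nearest of each, and list members past 2-fold with a few others. Alternatives were median, quantile and spike-in scaling (7 of 10 probes), normexp with offset 50 (limma 3.58.1, R 4.3.3), the value table, other probe rules and filters, and limits of 1.5-fold and 4-fold. Python 3.11.15, NumPy 2.4.6, pandas 2.3.3 and matplotlib 3.10.9 were used, and the steps were tested on simulated data.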

Additional observations from a re-analysis of the deposited data

How the results depend on the processing

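The count of members past 2-fold between 4-OHT and vehicle stayed within 1.5 times its value of 8 under each alternative run. Between vitamin E and 4-OHT alone, 4 members passed a 4-fold limit. Between lutein and 4-OHT alone the count of 0 was 1 with median scaling (Fosl1) and 1 with the dimmest measured probe (Fosl2), and 5 members passed a 1.5-fold limit. Between vitamin E and vehicle the count of 1 was 2 with no filter, and 6 passed 1.5-fold. With a 4-fold limit the counts were 4 between lutein and vehicle and 3 between vitamin E and lutein. Over all 6 comparisons, 58 alternative values of these counts stayed within 1.5 times and 8 did not, those given here. The share of all gene names past 1.5-fold or 4-fold was not counted, so the member counts at those limits stand without it. No member difference past 2-fold changed sign. Spike-in scaling moved the median of all gene names between 4-OHT and vehicle from -0.06 to -0.21, and the split of names at least 2-fold higher and lower from 1708 and 695 to 1354 and 1144 (1537 and 916 under quantile normalization, 899 and 348 under normexp, 1271 and 529 with both arrays above background, and 3140 and 1486 with no filter). The share left for Fos with vitamin E was 66.2% to 72.7% over the scalings and backgrounds run, above the next member in each. The alternatives for shares left and for pathway lists were chosen after seeing the data. No paired analysis was possible because there was 1 array per condition. Signals near background limit Fosl1, Junb and Maff most.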

Other observations

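Non-coding transcript probes of the array lay within 50 kb of 3 members, 17 probes in all, of which 10 were well above background on at least 1 array. Beside Junb there were 13, and 8 of them were well above background on some array. On the same strand as Junb (mm9 chromosome 8, minus), 4 probes of 1 such region were well above background on all 4 arrays, 5233 to 5723 bases from the Junb probe. The 3 farther ones, at 5579, 5663 and 5723 bases, had log2 differences of 0.71, 1.03 and 0.70 between 4-OHT and vehicle, and of -1.67, -1.53 and -1.81 between vitamin E and 4-OHT alone. They lay below vehicle with vitamin E, at -0.96, -0.50 and -1.11, where Junb was 0.91 above it. The nearest probe, at 5233 bases, had the opposite signs, -0.23 and 0.63. These 4 probes were singled out after their values were seen. Beside Jun, a probe on the opposite strand at 15379 bases had log2 levels of -1.46 with vehicle and -1.44 with 4-OHT, a difference of 0.03.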
